A study of Mus musculus with 6 samples.

Results

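A Dab1 knockout array was compared with a wild type array of the same series. The comparison takes 2 of the 6 arrays, chosen by their genotype labels, and reads every probe set on the array. Each array holds RNA from 1 frontal cortical lobe of 1 mouse aged 21 days, on a mixed C57BL/6 and 129 background and labelled male and untreated. The Dab1 knockout mouse (labelled DAB1 KO) came from matings of Dab1 +/- mice. The wild type mouse (WT) was a littermate from a cross of mice heterozygous for both Vldlr and Apoer2, so the Dab1 knockout has no wild type array from its own cross. The other 4 arrays are knockouts of Vldlr alone, of Apoer2 alone and of both (the double knockout), all from the receptor cross, and a knockout of Reln from Reeler +/- matings. Per the labels, mice were recognised by the reeler phenotype, which is stated for all samples alike. The labels used here give neither the allele nor the deleted part of Dab1. With 1 array per genotype no test of genotype is possible, and genotype, animal and cross cannot be told apart. The other 4 arrays serve as a measure of spread, which also holds their own differences in genotype.

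Dab1 is the adaptor protein that passes on the reelin signal inside neurons. Reelin, a secreted glycoprotein encoded by Reln, binds the receptors Vldlr and Apoer2 (gene symbol Lrp8), and Src family kinases then phosphorylate Dab1 on tyrosines. Phosphorylated Dab1 recruits Crk and Nck adaptors and phosphoinositide 3-kinase, and it is then degraded through Socs proteins and the ligase Cul5. Mice without Dab1, without reelin or without both receptors are known for the reeler phenotype, with cortical layers out of order and a small, poorly foliated cerebellum that is short of granule cells. The Dab1, Reln and double knockouts are therefore called the reeler models here.

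The deposited values are signal intensities of 45101 probe sets. They were analysed as log2(signal + 28), and a difference is the Dab1 knockout minus the WT value on that scale. Median signals were 86.5 to 92.3 over the 6 arrays. Pearson's r of log2 signals with WT, across 11499 genes that are not independent replicates, was 0.970 for the Dab1 knockout array and 0.955 to 0.982 for the other 4. The ratio of 3' to 5' control signal was 0.731 on the Dab1 knockout and 0.707 on the WT array for Gapdh (0.699 to 0.724 on the other 4) and 1.45 and 1.33 for Actb (1.32 to 1.45). The sex genes went against the label on both arrays: Xist, which coats and silences the inactive X of females, read 3861 on the Dab1 knockout and 3498 on the WT array, while Y-linked Eif2s3y read 0.6 and 7.1. Of the 6 arrays, that of the Apoer2 knockout alone read low for Xist (124.9) and high for Eif2s3y (367.5). The labelled tissue was present, with the cortical neuron genes Mef2c (3755 on the Dab1 knockout and 2743 on the WT array), Tbr1 (383.0 and 360.8) and Cux2 (427.1 and 282.4). Markers of other regions were bright as well, among them Pcp2 of cerebellar Purkinje cells (2817 and 2336) and Ttr of the choroid plexus (6436 and 7724). In such bulk RNA, fewer cells of a type and less RNA per cell cannot be told apart.

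At least 2-fold differences between Dab1 knockout and WT were found for 119 of 11499 genes (1.03%), with 33 genes higher (0.287%) and 86 lower (0.748%). The lower side was led by genes of cerebellar granule cells and the hindbrain together with single genes such as Snhg14, Efhd2 and Otud3. The higher side was led by Galc, Gm14198, Cd33 and 9630013A20Rik. The median over all genes was 0.0054, and 50.8% of genes lay above WT. The other mutant arrays, which share the same WT array, were 2-fold from it for 83 (Vldlr, 0.722%), 45 (Apoer2, 0.391%), 286 (Reln, 2.49%) and 107 genes (double, 0.931%). Just past 2-fold stood Bex4 (709.6 against 340.2 on WT) and Crybb1 (208.6 against 88.3) on the higher side and Rmst (61.3 against 150.8) and Mpp3 (510.3 against 1051) on the lower. Just short of it were Apbb3 (0.995), Gm20754 (0.99), Sh2d5 (-0.99) and Wdfy1 (-0.98). Over single probe sets with no filter on signal, 1194 of 45101 (2.65%) differed 2-fold, 500 higher (1.11%) and 694 lower (1.54%), many of them at background level, and past the filter 312 of 22552 (1.38%) did.

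**Figure D1:**
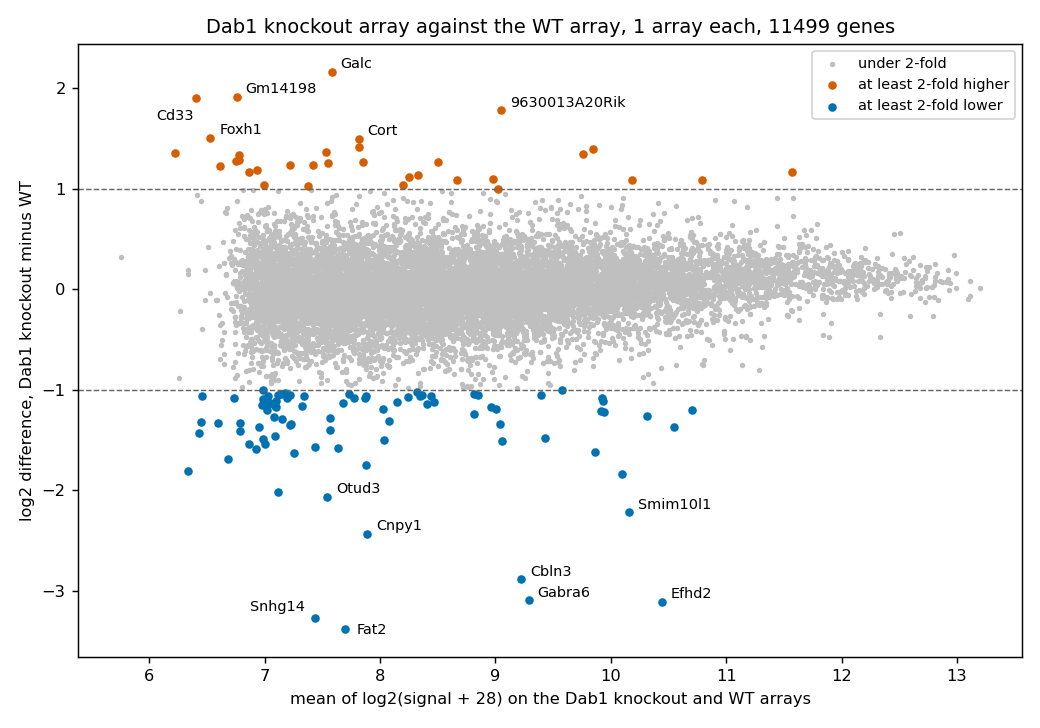
Each point is 1 gene. The x axis is the mean of log2(signal + 28) over the Dab1 knockout and WT arrays, the y axis is the log2 difference, Dab1 knockout minus WT, and dashed lines mark 2-fold. The 86 lower genes (blue) reach -3.38 at Fat2 and the 33 higher genes (orange) reach 2.17 at Galc.

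The 6 arrays divide these 119 genes by which array stood apart. The Dab1 knockout array lay outside the range of the other 5 for 73 of them (61.3%, against 31.8% of all genes, 16.6% above and 15.3% below) and the WT array did for 71 (59.7%, against 37.8%), with 38 in both counts. Since a large difference between 2 arrays favours genes in which either is extreme, these shares describe the genes and are no evidence on their own. For 45 of the 119 genes the 3 reeler models all lay on 1 side of WT and the single receptor knockouts, against 17.7% of all genes. That pattern held for 40 of the 86 lower and 5 of the 33 higher genes, against 8.67% and 9.04% of all genes in those directions. The pattern needs the Dab1 knockout and WT on different sides, so choosing genes by that difference favours it. These shares too are no evidence on their own. The difference was over 2 SD of the other 4 arrays for 87 of the 119 genes. The share over all genes was not counted, and genes chosen for a large difference favour a high count.

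Dab1 itself was measured by 5 probe sets and none reached 2-fold. The brightest read 478.5 on the Dab1 knockout and 576.2 on the WT array (difference -0.25), with 516.4 to 626.0 on the other 4 arrays. The largest difference, -0.73, was at the dimmest probe set, which read 102.1 on the Dab1 knockout array and 187.8 to 217.7 on the other 5. The Dab1 signal of the knockout array was thus below the other arrays at that probe set by more than their range, but it was not near background at any. It was the lowest of the 6 arrays at 4 of the 5. Without the deleted part of the gene, none of the 5 can be placed inside or outside it. At their brightest probe sets the genes upstream of Dab1 were near their WT level on this array. Differences were -0.11 for Reln (1547 against 1669), 0.05 for Lrp8 (370.1 against 357.8) and -0.18 for Vldlr (482.9 against 551.6). Averaged over all probe sets of each gene they were -0.37, 0.08 and 0.06. Of 4 Vldlr probe sets past the filter, 2 were below WT.

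The genes that act with Dab1 inside the cell showed no 2-fold difference in 48 members past the signal filter. Their median difference was 0.00, with 24 above and 24 below WT, and the Dab1 knockout array lay outside the other 5 for 13 (27.1%, against 31.8% of all genes). Among the kinases that phosphorylate Dab1, Fyn read 1484 on the Dab1 knockout against 1212 on the WT array and 1174 to 1375 on the other 4, and Src read 573.6 against 494.2 and 490.7 to 759.4. The adaptors split: Nck1 was the lowest member at 211.1 against 338.6 (-0.62, with 240.9 to 319.7 elsewhere), while Crk (1583 against 1592) and Crkl (572.9 against 618.3) were near WT. Of the genes that remove phosphorylated Dab1, Socs6 differed by 0.25, Socs7 by -0.07, Cul5 by -0.08 and Rnf7 by -0.22. Pafah1b1, which encodes Lis1, a dynein regulator that binds phosphorylated Dab1, differed by 0.25, and there it was WT (1977) that lay below all 5 mutants (2352 to 2544). The highest members were Dcx, a microtubule-binding protein of migrating neurons (0.86), Cdk5r2, an activator of the kinase Cdk5 (0.68), and Gsk3b, a tau kinase (0.49). These are values of the brightest probe sets: a second one of Cdk5r2 was at 0.04, and of 5 for Gsk3b past the filter 3 were below WT, with a mean over all of 0.02.

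Genes of cerebellar granule cells, the small glutamatergic neurons of the cerebellar cortex, made up 10 of the 86 lower genes, more than any other of the 37 lists examined. All 20 members past the signal filter, of 26 on the array, were below WT, 10 of them by at least 2-fold (against 0.748% of all genes). The list was put together with earlier results of these arrays known, so its direction is no independent evidence. Gabra6, which encodes the GABA-A receptor alpha6 subunit, read 1797 on the WT, 1248 on the Vldlr, 2015 on the Apoer2, 185.7 on the Dab1, 251.5 on the Reln and 106.6 on the double knockout array. Cbln3, a secreted partner of the synapse organiser Cbln1, read 1593, 1138, 1532, 191.4, 286.4 and 114.5 in the same order. For both genes the reeler models formed a low group that did not overlap the other 3 arrays, with the Dab1 knockout array between the double and the Reln knockout. Fat2, a protocadherin of granule cell axons, read 642.5 on WT, 549.1 and 560.4 on the single receptor knockouts, 36.4 on the Dab1 knockout, 93.3 on the Reln knockout and 8.4 on the double knockout array. The Dab1 value lies under the brightest bacterial control of its array (39.6), so Fat2 was at least 9.92-fold lower than WT.

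The remaining granule genes graded from these to genes near WT. Neurod1, a transcription factor of granule cell differentiation, read 551.0 against 2045 on WT (-1.84), and the other 2 reeler models read 416.9 and 382.1. Lower by 2-fold or more were also the cytokine precursor gene Il16 (-1.58), Cbln1 (-1.37), the Rac regulator gene Chn2 (-1.22), the transcription factor gene Zic1 (-1.20), the NMDA receptor gene Grin2c (-1.17) and the metabotropic receptor gene Grm4 (-1.09). Genes that cortical neurons also express lay closest to WT, namely Slc17a7 (-0.30), Reln (-0.11) and Rbfox3 (-0.08). The list median was -0.91, against -0.20 for Vldlr, 0.02 for Apoer2, -1.32 for Reln and -1.12 for the double knockout, all set against the same WT array. It was -0.73 against the mean of the WT and single receptor knockout arrays, and -0.63 with no filter on signal. Of 4 hindbrain genes past the filter, of 15 on the array, 3 were lower by 2-fold, against 0.748% of all genes. They were Cnpy1 (73.7 against 522.0, -2.44), En2, a homeobox gene of the midbrain and hindbrain (-1.75), and Pax5 (-1.33), while Pax8 was at 0.03. Cnpy1 (96.8 and 32.2) and En2 (109.8 and 74.4) were also low on the Reln and double knockout arrays. Pax5 was not, with 41.4 on the Dab1 knockout, 136.1 and 159.6 on those 2 arrays and 146.5 on WT. The hindbrain median was -1.54, and -0.45 with no filter on signal.

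Purkinje cell genes, also of the cerebellum, were near WT on the same array. They had a median difference of 0.05 over 19 members, with 12 above and 7 below WT and none at 2-fold. Their median was 0.10 for Vldlr, 0.01 for Apoer2, -0.17 for Reln and -0.14 for the double knockout. The summed signal of the Purkinje genes was 29992 on the Dab1 knockout and 28873 on the WT array, while that of the granule list was 17886 and 31499. On the Reln and double knockout arrays the Purkinje sum was 25363 and 27390. The defining Purkinje genes Pcp2 (0.27) and Ppp1r17 (0.34) were above WT and Car8 (-0.19) was below. Genes of granule cell progenitors and hedgehog signalling had a median of -0.13 over 11 members, from Boc (-0.70) to Gli1 (0.30), and averaging a gene's probe sets turned this median to 0.17. Genes of Bergmann glia, unipolar brush and Golgi cells had a median of -0.28 over 10, with 7 below WT and none at 2-fold. How much cerebellar tissue each lobe carried was not measured apart from these genes, and its part in the granule result was not tested.

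The promoters of the lowest granule genes are shown because these genes were low together on the array. Each is the 250 bases before the RefSeq start site (GRCm38.p6, minus strand, printed 5' to 3' in the gene's direction), and capitals mark a match to TTGGC, the recognition core of NFI factors, read on either strand as TTGGC or GCCAA. NFI factors act in granule cell maturation, and the bHLH E-box CAGATG was searched likewise.
Fat2, chr11:55312258-55312507: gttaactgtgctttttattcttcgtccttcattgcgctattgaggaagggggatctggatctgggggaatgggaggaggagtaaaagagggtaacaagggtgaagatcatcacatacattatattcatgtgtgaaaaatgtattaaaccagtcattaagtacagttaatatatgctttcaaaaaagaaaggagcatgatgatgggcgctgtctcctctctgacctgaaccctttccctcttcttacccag
Gabra6, chr11:42321073-42321322: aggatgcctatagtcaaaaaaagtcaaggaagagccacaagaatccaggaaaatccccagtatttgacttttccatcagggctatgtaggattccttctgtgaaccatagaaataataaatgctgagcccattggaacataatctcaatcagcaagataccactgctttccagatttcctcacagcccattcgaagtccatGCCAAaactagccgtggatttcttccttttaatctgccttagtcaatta
Cbln3, chr14:55884257-55884506: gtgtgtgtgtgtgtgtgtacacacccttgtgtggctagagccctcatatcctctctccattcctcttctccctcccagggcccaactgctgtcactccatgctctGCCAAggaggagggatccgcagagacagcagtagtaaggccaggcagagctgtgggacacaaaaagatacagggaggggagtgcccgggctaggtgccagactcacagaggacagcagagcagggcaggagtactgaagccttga
Neurod1, chr2:79456637-79456886: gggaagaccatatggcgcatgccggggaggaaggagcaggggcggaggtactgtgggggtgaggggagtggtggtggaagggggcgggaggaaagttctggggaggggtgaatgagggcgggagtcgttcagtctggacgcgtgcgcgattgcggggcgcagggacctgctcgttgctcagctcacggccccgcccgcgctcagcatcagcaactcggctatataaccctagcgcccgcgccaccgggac
TTGGC was matched once each in Gabra6, starting 49 bases before the start site, and in Cbln3, starting 145 bases before it, and CAGATG in none of the 4. Over all 32851 promoters of the same length, 41.5% held TTGGC and 14.4% held CAGATG. Of 22 promoters of 16 granule genes found in the table, 10 (45.5%) and 3 (13.6%) did. A match is a description of letters, and these shares are close to those of all promoters.

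**Figure D2:**
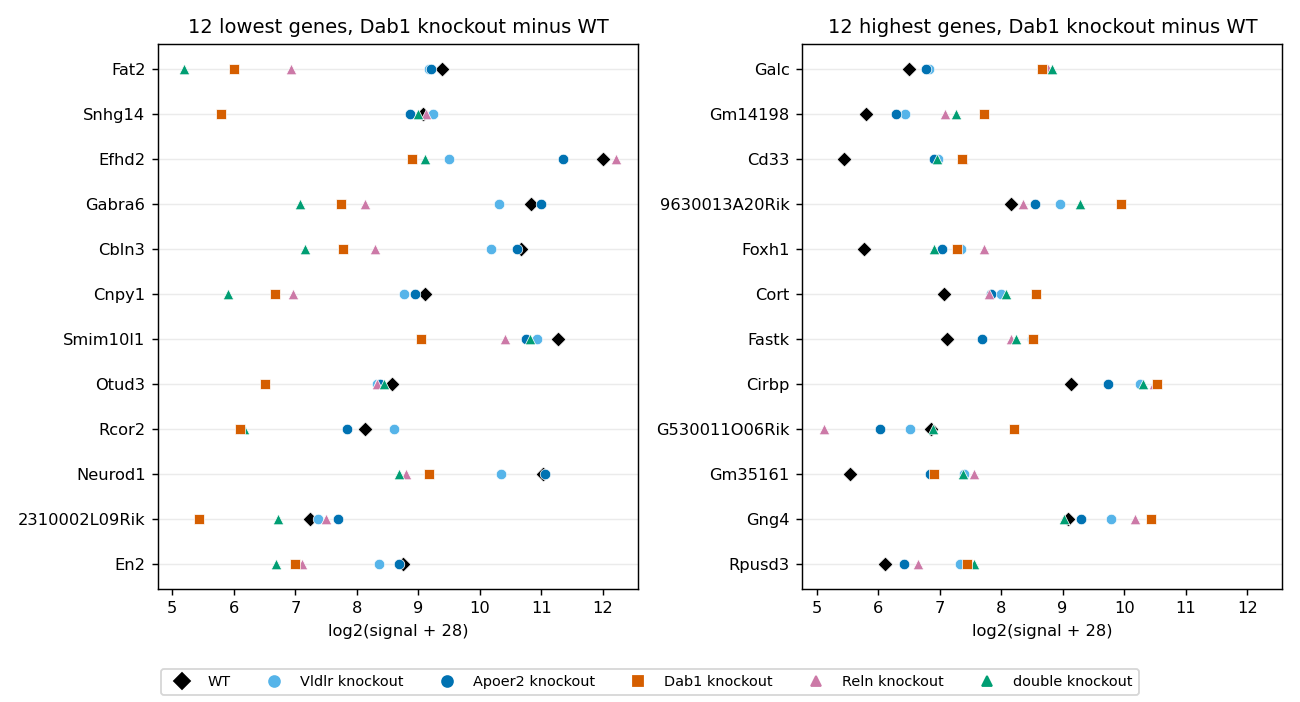
The x axis is log2(signal + 28) on each of the 6 arrays for the 12 lowest (left) and 12 highest genes (right) by the difference between Dab1 knockout and WT. Squares are the Dab1 knockout, diamonds WT, circles the single receptor knockouts and triangles the Reln and double knockouts. For Fat2, Gabra6, Cbln3, Cnpy1, Neurod1 and En2 the square lies with the triangles, for Snhg14 and Otud3 it lies alone, and for Cd33, Foxh1 and Gm35161 the diamond lies alone.

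A second group of genes set the Dab1 knockout array apart from all 5 others, the Reln and double knockouts included. It was at least 2-fold beyond the nearest other array below for 10 genes and above for 1. The same counts were 5 below and 0 above for WT, 7 and 0 for Vldlr, 4 and 2 for Apoer2, 14 and 24 for Reln and 5 and 2 for the double knockout. The 10 genes below were Snhg14, Otud3, Tmem40, Smim10l1, 2310002L09Rik, Ace, Gabra2, Shmt1, Shld2 and Ccdc91, and the 1 above was G530011O06Rik. On the Dab1 knockout array Snhg14 (27.6), Tmem40 (29.0), 2310002L09Rik (15.1) and Shld2 (32.9) read under its brightest bacterial control (39.6). Otud3, which encodes a deubiquitinase, read 63.1 on the Dab1 knockout array and 293.0 to 353.8 on the other 5 (-2.07). Shmt1, an enzyme of folate metabolism, read 58.8 against 167.8 to 241.1 (-1.63), and Ace, angiotensin-converting enzyme, 65.1 against 188.6 to 353.0 (-1.35). Since each array is 1 animal on a mixed background, genotype and animal cannot be told apart for these genes either.

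Probe sets of a gene gave different answers for several of these genes. Second probe sets past the filter differed by -0.47 for Otud3, -0.27 for Tmem40 and -0.14 for Ace, which read 194.6 there against 218.0 on WT. Of 4 Ccdc91 probe sets past the filter 1 was 2-fold, with differences from -1.05 to -0.14. Snhg14, the noncoding host transcript of small nucleolar RNAs in an imprinted region, read 27.6 on the Dab1 knockout array, under its bacterial controls, and 438.0 to 575.5 on the other 5 at its brightest probe set, at least 7.94-fold below WT. A second Snhg14 probe set past the filter read 104.5 against 103.6 on WT (0.01), and its neighbours in the same region Snrpn (0.12), Ube3a (-0.08) and Ipw (0.77) were not lower by 2-fold. For Smim10l1 the used probe set was lower (499.9 against 2430, -2.22) while 2 others differed by -0.33 and -0.03. Gabra2, the alpha2 subunit of the GABA-A receptor, was low at the 3 probe sets past the filter. These read 144.3, 150.5 and 142.0 on the Dab1 knockout array and 366.0, 321.4 and 378.2 on WT, and the other 4 arrays read 519.1 to 684.5 at the brightest. All 3 lay below the other 5 arrays, with differences of -1.19, -0.97 and -1.26. Its 2 dimmer probe sets were near WT (0.05 and -0.08), and the mean over all 5 was -0.69, short of 2-fold.

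On the higher side, every probe set of 9630013A20Rik and Glo1 gave the same direction. 9630013A20Rik differed by 1.78, 1.64 and 1.26 at 3 probe sets, with 955.5 on the Dab1 knockout array at the brightest against 258.0 on WT and 592.2 on the next array, the double knockout. Glo1, which encodes glyoxalase 1, a detoxifying enzyme, differed by 0.88, 0.86, 0.97 and 0.39 at 4 probe sets. At the brightest it read 2884 on the Dab1 knockout, 1559 on WT, 1921 on the Reln knockout and 1074 to 1098 on the 3 receptor mutants. Apbb3, which binds the cytoplasmic tail of amyloid precursor protein, read 699.1 against 269.6 to 384.3 on the other 5, and Clec2l, a C-type lectin gene, 1664 against 679.2 to 1015. Of the 119 genes 2-fold from WT, 78 rest on 1 probe set past the filter. Of the other 41, all probe sets had the same sign in 32 and all were 2-fold in 12, and in 9 some probe set ran the opposite way.

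**Figure D3:**
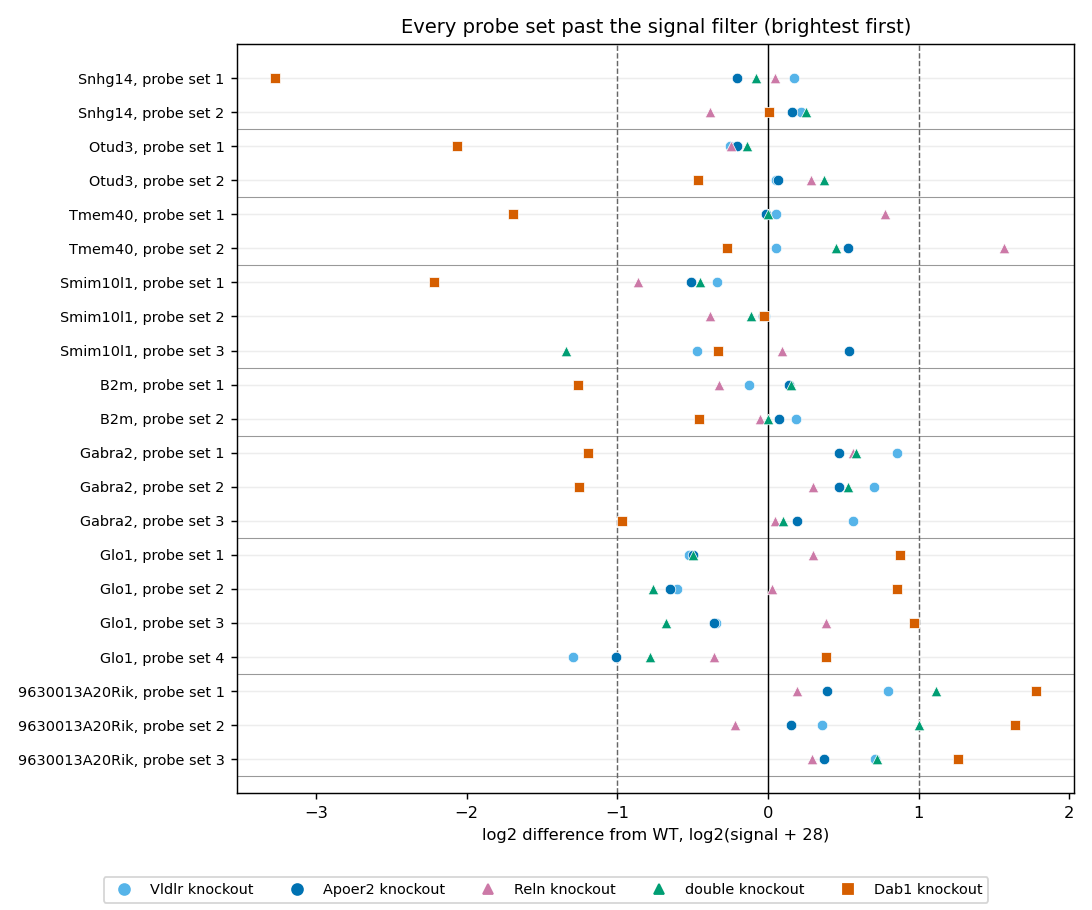
Each row is 1 probe set of a gene for which the Dab1 knockout array stood apart, and the x axis is the log2 difference of each mutant array from WT. The Dab1 knockout (squares) lies left of the other 4 arrays at all 3 Gabra2 probe sets and right of them at all 4 Glo1 and all 3 9630013A20Rik probe sets, while for Snhg14 and Smim10l1 it lies apart at 1 probe set only.

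For a further group the WT array stood apart, so the difference rests on that array as much as on the Dab1 knockout. The highest gene, Galc, an enzyme of myelin lipid breakdown, followed the reeler models instead. It read 62.3 on WT and 82.3 and 86.0 on the single receptor knockouts, against 377.0, 404.6 and 425.3 on the Dab1, Reln and double knockouts. A second Galc probe set differed by -0.69. Cd33, a sialic acid binding receptor of microglia, read 15.8 on WT, under its bacterial controls, and 92.0 to 138.4 on all 5 mutants. Cirbp, a cold-inducible RNA-binding protein gene, read 537.0 on WT and 823.8 to 1462 on the mutants, and Foxh1 26.7 and 91.7 to 182.0. Against the mean of the WT, Vldlr and Apoer2 knockout arrays the difference was 0.91 for Cd33 in place of 1.90, 0.83 for Cirbp in place of 1.40 and 0.56 for Foxh1 in place of 1.51. With that comparison 71 genes were 2-fold, 15 higher and 56 lower, and 55 of the 119 were among them.

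Genes of the cortex itself differed less. Upper-layer genes had a median of 0.17 over 19 members and deep-layer and subplate genes 0.12 over 27, with none at 2-fold in either list, beside 0.0054 over all genes. Averaging a gene's probe sets took the upper-layer median to -0.00. The highest upper-layer genes were the semaphorin receptor gene Plxnd1 (389.8 against 235.1, 0.67), Cdh13 (0.64) and Pou3f1 (0.59), and the lowest Inhba (-0.21), Kitl (-0.16) and Rspo1 (-0.12). In deep layers Crym (1407 against 794.0, 0.80), Rprm (0.76) and Ccn2 (0.55) were highest and Drd1 (-0.30), Lpar1 (-0.28) and Deptor (-0.16) lowest. For Crym and Rprm, WT lay below all 5 mutants as well as the Dab1 knockout above the others. These values are amounts of RNA in a whole lobe and do not show where in the cortex the cells lay.

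Genes of immature neurons had the highest median of all lists of at least 4 genes, 0.35 over 15 members, against 0.25 for Vldlr, 0.05 for Apoer2, -0.16 for Reln and 0.03 for the double knockout. The Dab1 knockout array lay outside the other 5 for 8 of the 15 (53.3%, against 31.8% of all genes), above them for 7. Dcx, doublecortin, read 436.5 on the Dab1 knockout, 228.5 on WT and 187.6 to 296.8 on the other 4 arrays, and all 4 of its probe sets were above WT, the 2 past the filter by 0.49 and 0.86 and the 2 dimmer ones by 0.37 and 0.38. Dpysl3, a growth cone protein gene, read 1083 against 609.9 (0.80), but the Vldlr knockout array read 1014. Sox11, a transcription factor of young neurons (0.67), and Gap43, of growing axons (0.49), were also above all other arrays. Of 5 Sox11 probe sets past the filter, 4 were above WT and 1 was below at -1.75, and the mean over all its probe sets was 0.02. None of these reached 2-fold, and Neurod1, the only member that did, was lower and is also a granule cell gene. Against the mean of WT and the single receptor knockouts the list median was 0.20.

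Interneuron and receptor genes held a few 2-fold members. Interneuron genes had a median of 0.15 over 22 members. By 2-fold, 2 were higher and 0 lower, against 0.287% and 0.748% of all genes. Cort, the neuropeptide cortistatin, read 350.1 on the Dab1 knockout, 105.9 on WT and 195.6 to 243.2 on the other 4 arrays, and Tac1, the substance P precursor, 2551, 1187 and 1830 to 2085 (1.09). For both, the Dab1 knockout was the highest and WT the lowest of the 6 arrays. Against the mean of the WT, Vldlr and Apoer2 knockout arrays Cort was at 0.93 and Tac1 at 0.58. Averaged over all probe sets of the gene, of which 1 passed the filter, Tac1 was at 0.41. Npy was at 0.72 and Sst at 0.43, and Ndnf (-0.48), Nos1 (-0.44) and Calb2 (-0.33) were lowest. The GABA-A receptor genes had a median of -0.02 over 10 members, with Gabra5 highest (891.6 against 469.2, 0.89). Lower by 2-fold were 2 of them (against 0.748% of all genes), Gabra2 and the granule cell gene Gabra6. Glutamate receptor genes had a median of 0.02 over 20, with Grik5 highest (0.75). Grin2c and Grm4, both granule cell genes, were lower by 2-fold, again against 0.748% of all genes. Among 32 sodium, potassium and calcium channel genes (median -0.04) only Kcnc1 was 2-fold lower (384.8 against 1123, -1.48), and of its 3 probe sets past the filter 1 ran the opposite way. At the brightest, Kcnc1 was also low on the Reln (527.1) and double knockout arrays (480.1), against 801.0 and 959.5 on the Vldlr and Apoer2 knockouts.

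**Figure D4:**
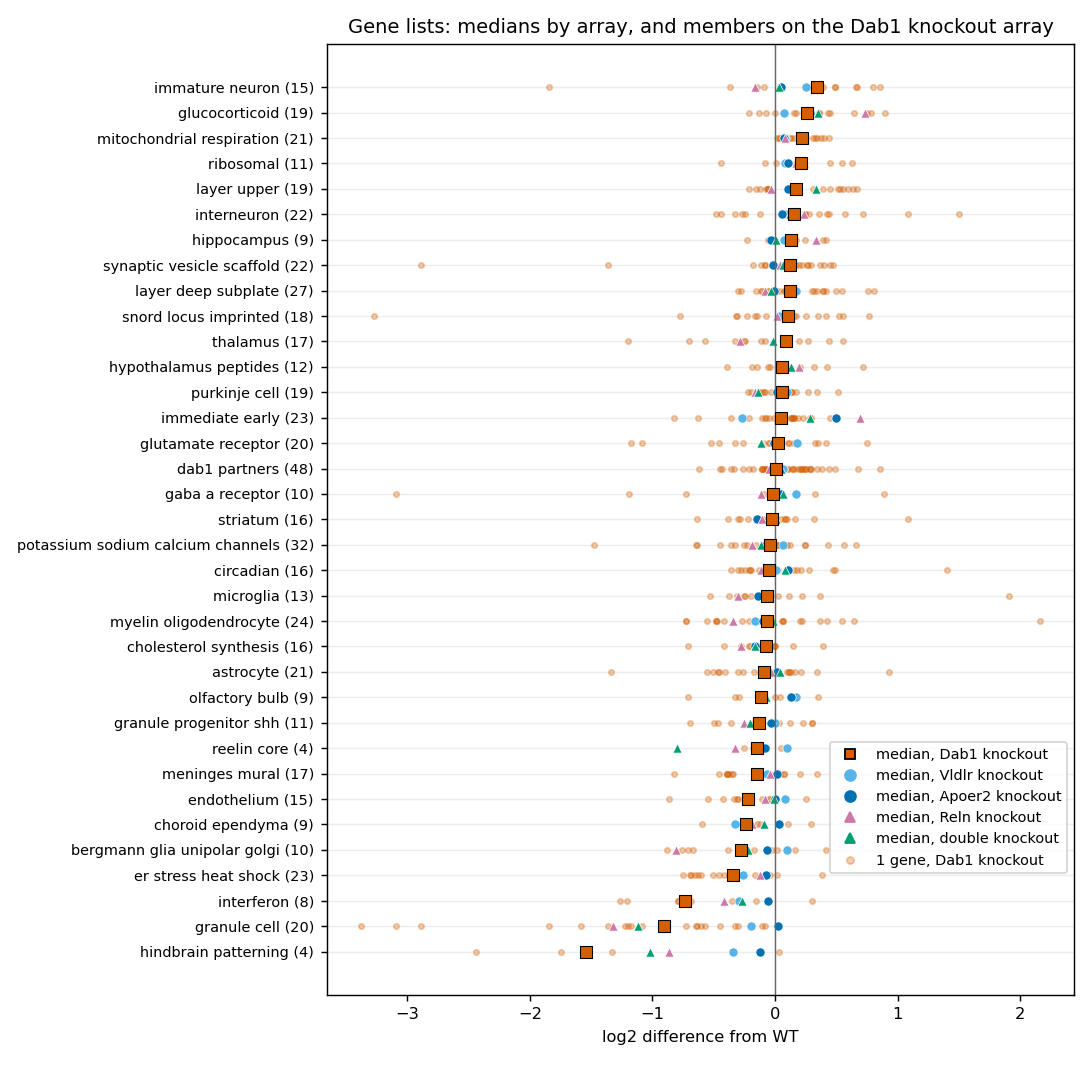
Each row is a gene list with its number of members past the signal filter, and the x axis is the log2 difference from WT. Large squares are the list medians on the Dab1 knockout array, small points its single genes, and circles and triangles the list medians on the other 4 mutant arrays. The granule cell (-0.91), hindbrain (-1.54) and interferon (-0.74) lists lie farthest left and the immature neuron list (0.35) farthest right. Without the signal filter the medians of the granule cell, hindbrain and interferon lists were -0.63, -0.45 and -0.22.

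Genes of protein folding lay mostly below WT, by small amounts. Of 23 genes of heat shock and endoplasmic reticulum stress, 21 were below WT, with a median of -0.34 and none at 2-fold. Hsph1, a large heat shock protein gene, read 1340 on the Dab1 knockout, 2279 on WT and 1542 to 1898 on the other 4 arrays (-0.75). Xbp1 (-0.61), a transcription factor of the unfolded protein response, and Hspa5 (-0.50), the main chaperone of the endoplasmic reticulum, were likewise lowest on the Dab1 knockout and highest on WT. The highest member was the mitochondrial chaperonin gene Hspe1 (0.39). The median was -0.26 for Vldlr, -0.08 for Apoer2, -0.12 for Reln and -0.33 for the double knockout, and -0.21 for Dab1 against the mean of WT and the single receptor knockouts. Interferon response genes had a median of -0.74 over 8 of 18 members past the filter, and -0.22 with no filter. B2m, the light chain of MHC class I, read 791.8 on the Dab1 knockout and 1541 to 2158 on the other 5 arrays (-1.26), with a second probe set at -0.46, and Ifit3 read 57.3 against 168.4 (-1.20), with 81.4 to 222.4 elsewhere.

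**Figure D5:**
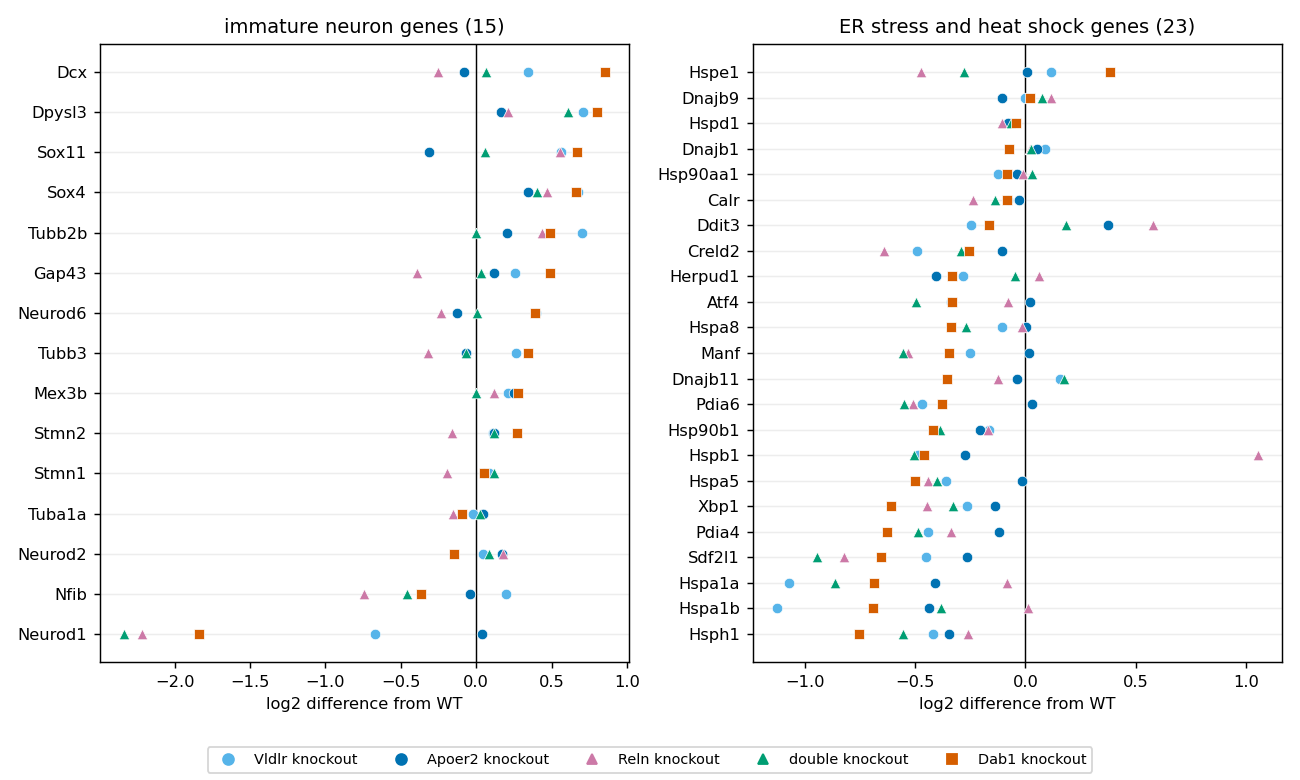
The x axis is the log2 difference from WT on each mutant array for 15 immature neuron genes (left) and 23 heat shock and endoplasmic reticulum stress genes (right), ordered by the Dab1 knockout (squares). Dcx, Dpysl3, Sox11 and Gap43 lie right of the other arrays, Neurod1 lies at -1.84 with the Reln and double knockouts, and 21 of the 23 folding genes lie left of 0.

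Respiratory chain and ribosomal protein genes were slightly higher. All 21 respiratory chain genes were above WT, with a median of 0.22 and Ndufv1 highest (2628 against 1925, 0.44), while 50.8% of all genes were above WT. Quantile normalization took the median to 0.09. The other mutant arrays were above WT too, with medians of 0.09 for Vldlr, 0.07 for Apoer2, 0.08 for Reln and 0.22 for the double knockout. The WT array lay outside the other 5 for 10 of the 21 genes, against 37.8% of all genes. The 11 ribosomal genes had a median of 0.21 (0.07 after quantile normalization), from Rps6 (-0.44) to Rplp0 (0.63). Their median was 0.08 for Vldlr, 0.11 for Apoer2, 0.17 for Reln and 0.24 for the double knockout. Glucocorticoid target genes had a median of 0.26 over 19, with Fkbp5 highest (985.9 against 517.7, 0.89). Their median was 0.07 for Vldlr, 0.29 for Apoer2, 0.73 for Reln and 0.35 for the double knockout. Immediate early genes had a median of 0.05 over 23, with Fos at 662.7 against 535.0. Their median was -0.27 for Vldlr, 0.50 for Apoer2, 0.70 for Reln and 0.28 for the double knockout.

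Glial lists lay near WT, with single 2-fold members. Myelin and oligodendrocyte genes had a median of -0.06 over 24, with Galc the only 2-fold member and Myrf (-0.72) and Ermn (-0.72) lowest. Astrocyte genes had a median of -0.09 over 21. In them Serpina3n, a marker of reactive astrocytes, was 2-fold lower (302.1 against 807.9, -1.34) and low in the other reeler models too (187.1 and 58.7), and Agt, angiotensinogen, was highest (1154 against 591.3, 0.93). Microglia genes had a median of -0.06 over 13. Endothelial genes, which are not glial, lay lower at -0.22 over 15, with 13 below WT, Vwf lowest (-0.86) and Cldn5 highest (0.59). Their medians on the other 4 mutant arrays were -0.09 to 0.08. Against the mean of the WT and single receptor knockout arrays the medians were 0.05 for myelin, 0.00 for astrocyte and 0.07 for microglia genes, so no direction of these 3 lists held. The endothelial median was -0.23 in that comparison. Of the blood genes 3 passed the filter, at 0.34 for Alas2, 0.00 for Fech and -0.01 for Bpgm.

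Genes beside Dab1 on chromosome 4 were examined by their order in the RefSeq gene table. Of the 25 protein-coding genes on each side, 20 in all passed the signal filter, and their median absolute difference was 0.167 against 0.179 over all genes. The Dab1 knockout array lay outside the other 5 for 8 of the 20 (40.0%, against 31.8% of all genes). Only Lepr, the leptin receptor gene, was 2-fold, and it read 32.9 on the Dab1 knockout array, under its bacterial controls, and 90.3 to 110.8 on the other 5, at least 1.88-fold lower than WT. Over chromosome 4 as a whole, 13 of 696 genes were 2-fold from WT (1.87%), the second highest share of 20 chromosomes after chromosome 6 (11 of 586, 1.88%) and before chromosome 5 (13 of 743, 1.75%). The 13 include Otud3, Efhd2, 2310002L09Rik, Fggy (42.0 against 104.4 to 182.0), the presynaptic gene Rims3 (287.8 against 546.7 to 872.9), Pax5 (41.4 against 105.3 to 159.6), Padi2 (200.3 against 318.4 to 475.2), Cort and Gnb1. For Trim62, Serinc2 and Zbtb40 the Dab1 knockout array lay within the range of the other 5. It lay outside that range for the others of the 13, but only narrowly for Efhd2 and Gnb1. Efhd2, a calcium-binding protein gene, read 445.8 on the Dab1 knockout, 525.6 on the double and 696.8 on the Vldlr knockout but 4735 on the Reln knockout, 2588 on the Apoer2 knockout and 4063 on WT. Gnb1, a G protein subunit gene, read 4526, 4405 and 3902 on the Dab1, Apoer2 and double knockouts and 1992, 1984 and 2700 on WT, Vldlr and Reln knockouts.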

How the data were processed

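RNA from 6 frontal cortical lobes, 1 per genotype, was hybridised to 6 arrays, per the labels. The deposited values are signal intensities on a linear scale, for which the submitters' processing notes name MAS5 and Affymetrix Expression Console. Versions and a genome build were not given in the sources used here. Names came from the platform's annotation of probe sets (34958 with 1 gene, 932 with several, 9211 with none), and 34754 were matched to the RefSeq gene table. Signals were taken as log2(signal + 28), which understates differences of dim genes. A gene was read from its brightest probe set on average, those ending in _x_at last. Of 18194 genes, 11499 reached a mean of 89.0, which is the probe sets' median, and were kept. A call is a 2-fold difference on that scale, with no test. A signal under the brightest of 27 bacterial control probe sets on its array (28.4 to 39.6) is a bound, and at least so many fold is computed from that control on the same scale. The number of arrays limits the precision.

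The members and the 37 gene lists were chosen with earlier results of these data known. Genes to be named were drawn from all probe sets of Reln, Lrp8, Vldlr and Dab1, the 12 highest and 12 lowest genes, the 8 genes farthest beyond the nearest of the other 5 arrays each way, in each list 3 members from either end and those past 2-fold, genes of sex and blood, and 2-fold genes within 25 genes of Dab1. Other list members, genes of chromosome 4 and genes at the 2-fold edge were named after their values were seen. Alternatives were pseudocounts of 1 and 89.4, a filter at 297.5 or none, averaging a gene's probe sets, quantile normalization, every probe set, the mean of the WT, Vldlr and Apoer2 knockout arrays as comparison, and ranges without 1 array. Python 3.11.15, numpy 2.4.6, pandas 2.3.3 and matplotlib 3.10.9 were used. The Dab1 protein sequence is not used here.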

Additional observations from a re-analysis of the deposited data

How the results depend on the processing

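No paired analysis was possible because there was 1 array per genotype. The direction of all 119 genes 2-fold from WT was kept under each setting that tested them, which was largely fixed in advance. Another pseudocount or filter cannot reverse a sign, the averaged probe sets include the one used, and the mean comparison includes WT. Still 2-fold were 49 with a pseudocount at the median signal, 108 after quantile normalization and 69 of 101 tested when a gene's probe sets were averaged. Against the mean of the WT and single receptor knockout arrays 55 were. Counts of 2-fold genes moved more. In place of 33 higher and 86 lower genes there were 59 and 130 with a pseudocount of 1, 13 and 36 with a pseudocount at the median signal, 183 and 227 with no filter, 12 and 31 with a filter at the 75th percentile, and 15 and 56 against the mean of the 3 arrays. Over every probe set there were 86 and 226 with the filter and 500 and 694 without. Quantile normalization gave 45 and 75, so that 37.5% of 2-fold genes were higher in place of 27.7%, and with no filter 44.6% were. Among 2-fold genes, those with the Dab1 knockout array outside the other 5 numbered 116, 31, 264 and 28 under both pseudocounts, no filter and the stricter filter, in place of 73, and those with the WT array outside numbered 108, 30, 264 and 25 in place of 71. The cause was not tested, beyond that filters and probe set units change how many features enter. Leaving 1 array out of the range gave 74 to 87. Under other settings 27 list medians moved by more than the SD over the other 4 arrays and 224 did not, as did 144 named gene values against 1370. The 1370 include settings that change only the filter, under which the value of a gene cannot move.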

Other observations

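Efhd2 was also measured by a second probe set, which read 1159 on the Dab1 knockout and 2052 on the WT array (-0.81), in the same direction as the brighter one. Gnb1 also differed at its second probe set, with 1952 against 401.4 (2.21). Ndrg1, a gene expressed in oligodendrocytes and astrocytes, was lower at 5 of 5 probe sets (-1.10 to -1.44), and there WT was the highest and the Dab1 knockout the lowest of the 6 arrays at the brightest. Prune2 went both ways, from -1.61 to 1.83 over its 3 probe sets past the filter.

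Probe sets with no gene name in the annotation used here held further differences. Of 2592 past the filter, 16 were 2-fold higher and 38 lower (2.08%). One of them read 469.0 on the Dab1 knockout array and 1854 to 3002 on the other 5 (-2.02), and another 4.0, under its bacterial controls, against 150.3 to 258.8. The highest read 2209 against 399.4 on WT (2.39), with 2474 and 1607 on the Reln and double knockouts and 1007 and 758.7 on the Vldlr and Apoer2 knockouts.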
